A study of Gallus gallus with 18 samples.

Results

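The genes described here are the ion and metal transporters of the chicken retinal pigment epithelium (RPE), followed across developing RPE, RPE after removal of the neural retina, and RPE after retinectomy with FGF2 at 2 embryonic stages. They are the 81 of 18336 genes in the table whose symbol names a Na,K-ATPase subunit (ATP1A or ATP1B), a calcium pump (ATP2A, ATP2B or ATP2C), a copper pump (ATP7A or ATP7B) or a member of the solute carrier families 4, 8, 9, 11, 12, 13, 20, 26, 30, 34, 39, 40 and 41. The choice was made by symbol, with earlier results of these data known. Of the 81, 78 are transporters or their subunits, and 3 are partner proteins whose symbol begins with that of a transporter (SLC9A3R1, SLC9A3R2 and SLC4A1AP).

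The RPE is a pigmented epithelial sheet between the photoreceptors and the choroid, and its transporters move salt, water, bicarbonate, protons and metal ions between these compartments. It is known for carrying the Na,K-ATPase on the apical membrane that faces the retina, where in most epithelia the pump is basolateral. The sodium gradient built by the pump drives cotransport of chloride, bicarbonate, phosphate and organic anions, exchange of sodium for protons or calcium, and fluid transport from the retina toward the choroid, while zinc, copper, iron and magnesium carriers supply the enzymes of melanin synthesis and of the antioxidant defence of the tissue.

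RPE was collected from chicken embryos, for which the sources name no transgene or mutation, at E4 (embryonic day 4, Hamburger-Hamilton stage 24) or E5 (stage 26), with 3 conditions for each. Developing RPE came from unoperated eyes and 6hPR RPE from eye cups 6 h after surgical removal of the neural retina. The 6hPR + FGF2 RPE came from eye cups that also received FGF2 on heparin beads at surgery. FGF2 is read against 6hPR and surgery against developing RPE. The sources name no unoperated group taken 6 h later, so surgery and 6 h of development cannot be told apart. They also name no group with beads alone, so FGF2 below means FGF2 with its beads. Each of the 6 groups has 3 libraries, each a pool of 3 RPE sheets, and n = 3 pools throughout. Whether pools were collected on separate days is not given in the sources used here, so the p-values measure the spread between these pools. In bulk RNA, fewer cells of a type and less RNA per cell cannot be told apart. All values are normalized counts, which are read counts divided by a size factor per library and are not corrected for gene length, so levels are compared for 1 gene between groups. Only the choice of the genes to name, which took the highest mean count in each role, set genes side by side.

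Reads on genes ran from 50.7 M to 73 M per library. The RPE identity of the samples was checked on 11 RPE markers, all of which were detected in every library, with summed levels of 453160 to 775237 at E4 and 951373 to 1560735 at E5. MITF, a transcription factor that specifies RPE, averaged 6068 in E4 developing RPE and 1176 in E4 6hPR + FGF2 RPE. In 2 libraries the chromosome W transcript HINTW was low (60.4 in E4 6hPR + FGF2 replicate 3 and 0 in E5 6hPR replicate 3, against 20330 or more in the others). E5 developing replicate 2 was highest for 11 of 13 neural retina neuron markers and for 1 of the 81 transporters, and E5 6hPR replicate 3 was highest for 5 of 7 yolk sac or liver markers and for 10 of the 81 transporters. The latter library was also highest for 5 of the 11 RPE markers. Its count of 10 transporters was not the largest. E5 6hPR + FGF2 replicate 1 was highest for 16, E5 developing replicate 1 for 12 and E5 developing replicate 3 for 10. TTR is on the RPE list and on the yolk sac or liver list. Between replicates, the median SD of log2 values over the 67 transporters with a mean of 50 or more ranged from 0.0925 (E5 6hPR + FGF2) to 0.206 (E5 developing) across the 6 groups.

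Group differences were tested with limma on log2(normalized count + 0.5) across 18287 genes, and differences count as called where the p adjusted by the Benjamini-Hochberg method did not exceed 0.05. Fold changes are on that log2 scale with a moderated standard error (SE), and fold values in words are ratios of group means. Each call was repeated under other pseudocounts, filters and scalings, in edgeR and DESeq2, in a fit of only the groups compared, with the replicate number as a block, without each library in turn, and without both libraries low in HINTW. A call between groups given below with its log2 change and no further remark was kept under every one of these.

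In each of the 3 comparisons of the stages, more transporters were higher at E5 than were lower. In developing RPE, 18 of the 81 were higher at E5 and 2 were lower, where 10.8% and 11.1% of all genes were called in those directions. In 6hPR RPE, 19 were higher and 4 lower (all genes, 11.3% and 8.41%). In 6hPR + FGF2 RPE, 31 were higher and 3 lower (all genes, 16.7% and 12.8%). The median log2 difference of the 81 transporters was 0.11 in developing RPE, 0.17 in 6hPR RPE and 0.34 with FGF2, against -0.000, 0.000 and 0.001 over all genes tested. The shares are a description, since 67 of 81 transporters but 13109 of 18287 genes had a mean of 50 or more and this difference in level was not adjusted for. SLC4A10, SLC4A5, SLC12A7, SLC26A11, SLC30A4 and SLC39A12 were called higher at E5 in all 3 conditions (6 of 81, against 3.37% of all genes), and none was called lower in all 3 (3.42% of all genes). For SLC4A5 in 6hPR RPE the E4 and E5 libraries overlapped (limma adjusted p = 0.019).

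After retinectomy alone, transporters differed from developing RPE in both directions. At E4, 11 rose and 8 fell in 6hPR against developing RPE (all genes, 5.68% and 7.9%), and at E5 13 rose and 11 fell (9.92% and 9.09%). With FGF2, 14 rose and 12 fell against developing RPE at E4 (9.82% and 10.2%), and 22 rose and 14 fell at E5 (15.1% and 13.7%). Against 6hPR RPE, FGF2 raised 10 and lowered 8 at E4 (4.99% and 3.28%) and raised 22 and lowered 9 at E5 (13.9% and 12.3%). The median log2 change over the 81 transporters lay between -0.00 and 0.15 in these 6 comparisons with both rises and falls in every one. The fit of only the groups compared left 1 of the 18 calls of FGF2 against 6hPR at E4, that of ATP1B3, and those calls rest on a spread shared with the other groups.

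**Figure D1:**
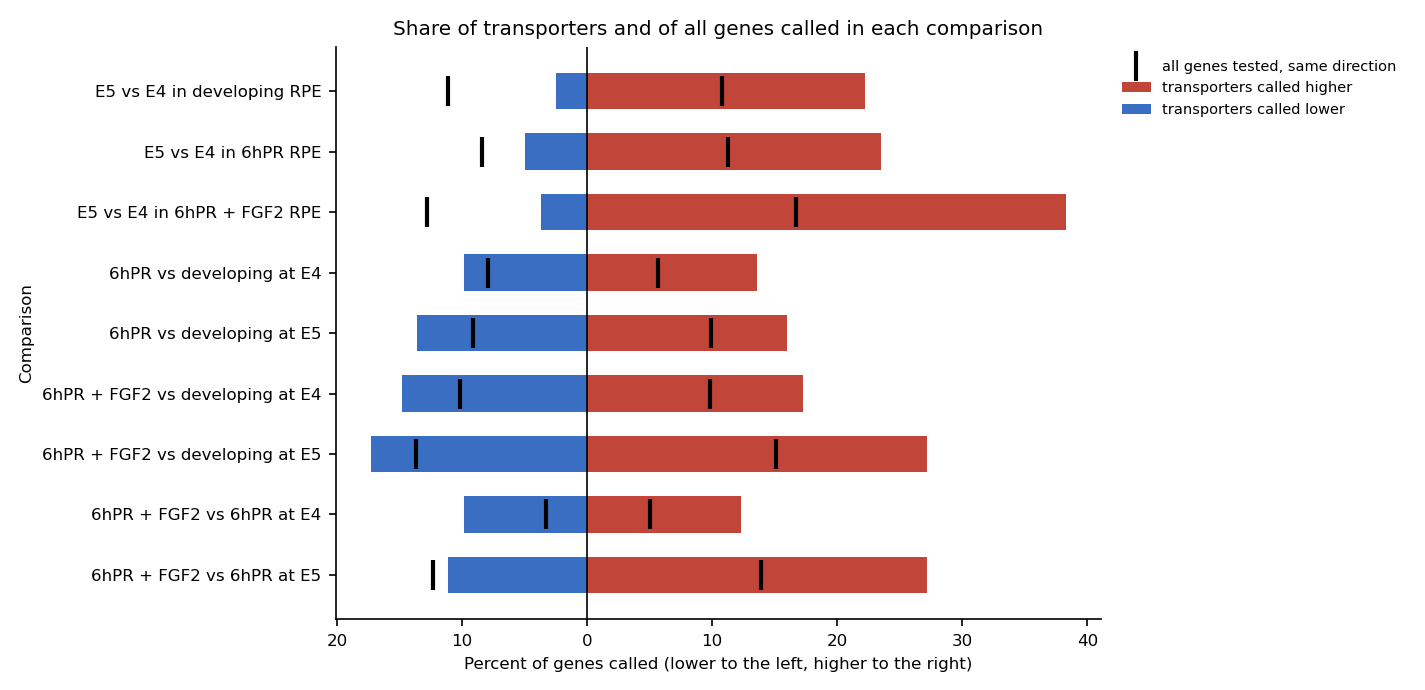
Share of the 81 transporters called in each of 9 comparisons, in percent, with higher calls to the right and lower calls to the left of 0. Black ticks mark the share of all 18287 genes called in the same direction. In the 3 comparisons of E5 with E4 the bars for higher calls pass the ticks (18, 19 and 31 transporters) and the bars for lower calls stop short of them (2, 4 and 3).

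The same comparison was read side by side at E4 and E5. Called higher in 6hPR than in developing RPE at both stages were SLC4A7, SLC9A2, SLC9A4, SLC12A5, SLC26A11, SLC30A2 and SLC39A12 (7 of 81, 3.18% of all genes), and called lower at both were SLC4A4, SLC20A1, SLC30A4, SLC39A10 and SLC41A2 (5 of 81, 3.8%). In 6hPR + FGF2 against developing RPE, 11 were called higher at both stages (6.04% of all genes) and 8 lower (5.49%). In 6hPR + FGF2 against 6hPR RPE, ATP1B3, SLC9A2, SLC9A3R1, SLC26A5, SLC39A13 and SLC41A1 were called higher at both stages (6 of 81, 3.22%), and ATP1B1, SLC9A5 and SLC9A3R2 lower (3 of 81, 1.81%). The responses to treatment were also compared between the stages in an interaction term. It was called for 6 transporters in 6hPR against developing RPE (2.99% of all genes), for 8 in 6hPR + FGF2 against developing RPE (5.56%) and for 4 in 6hPR + FGF2 against 6hPR RPE (2.54%). Of the 81, 61 were called in at least 1 of the 9 comparisons and 20 in none. The like share of all genes is not given here. This count, and those of the families below, therefore describe the members alone and set them apart from no other genes.

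**Figure D2:**
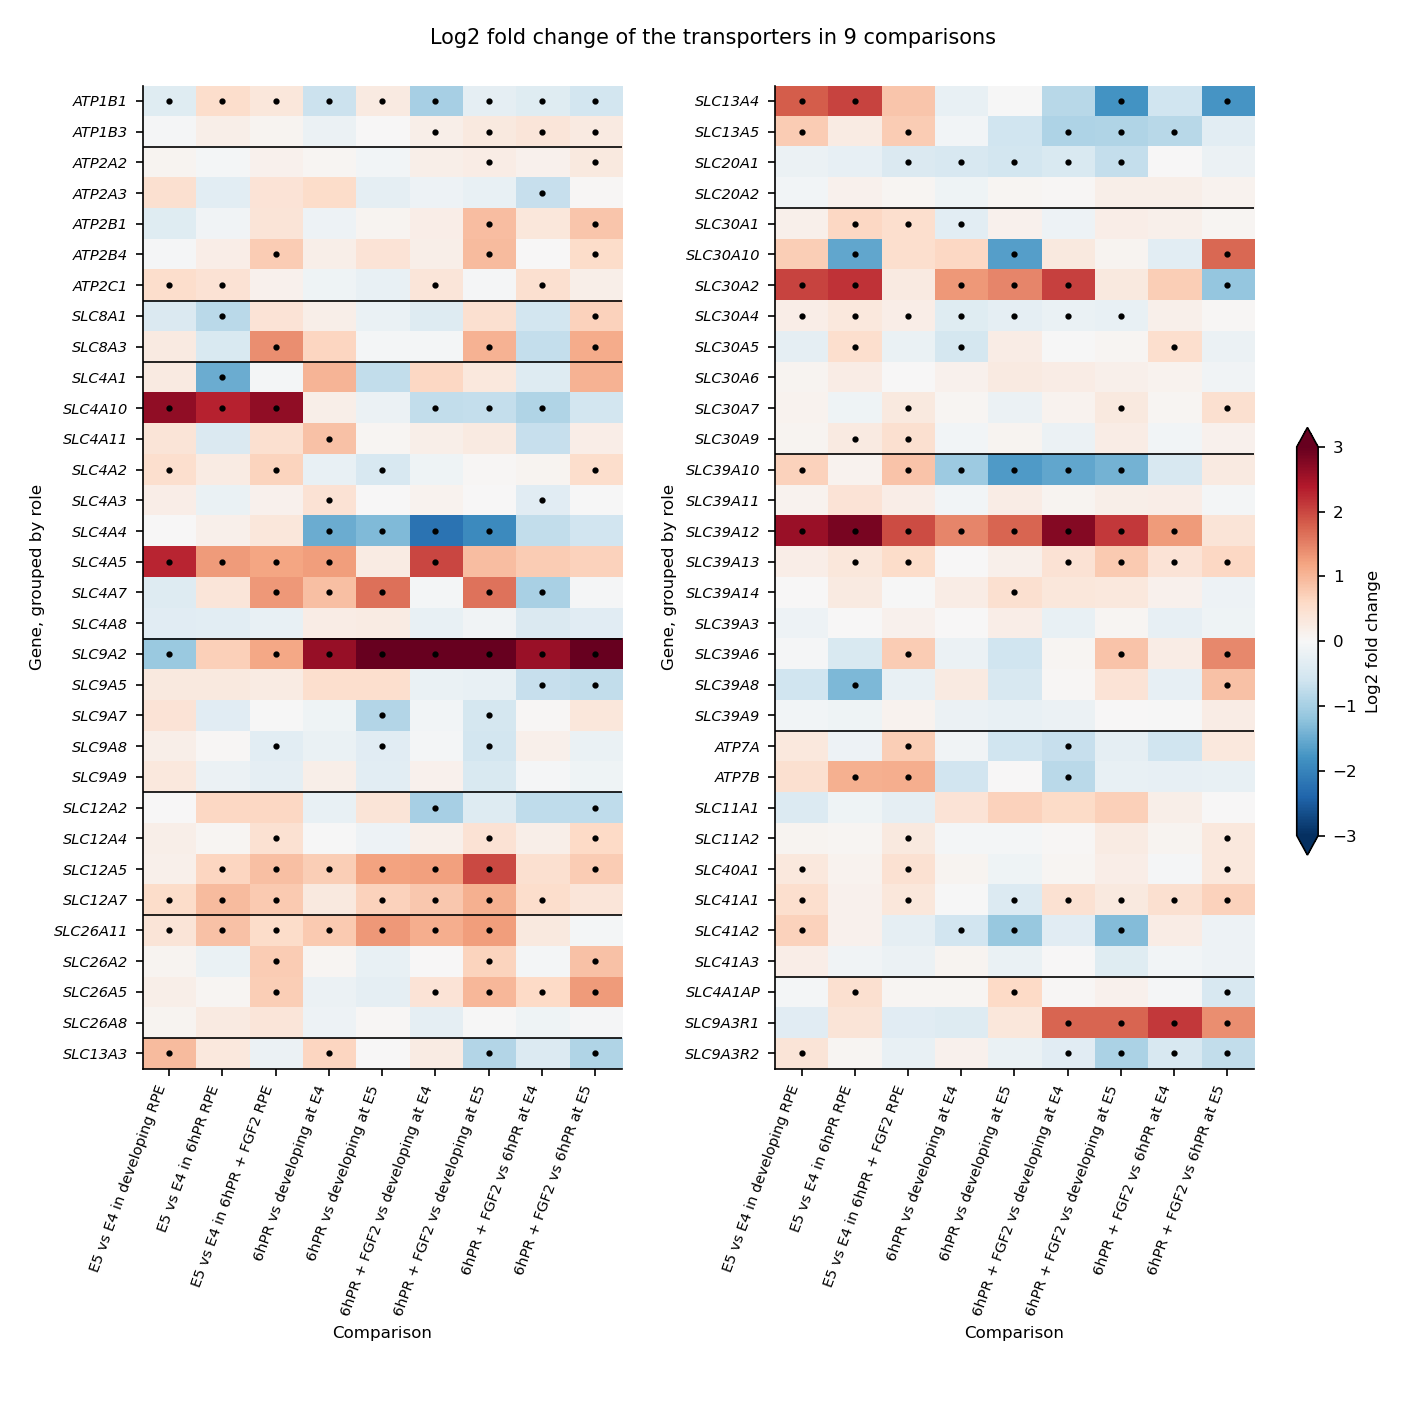
Log2 fold change of 64 transporters with a mean of 50 or more in the 9 comparisons, in 2 panels of genes grouped by role and separated by black lines. Red is higher and blue lower in the group named first, the color scale ends at 3 and -3, and dots mark calls at an adjusted p of 0.05 or less. SLC4A10 and SLC39A12 are red in all 3 stage comparisons, and SLC9A2 passes the end of the scale in 4 of the 6 treatment comparisons.

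The Na,K-ATPase consists of a catalytic alpha subunit and a beta subunit that brings it to the membrane. ATP1B1 (ENSGALG00000015233), the first beta subunit, was at 39446, 37798 and 38990 in developing RPE of E4, 28555, 22298 and 24295 in 6hPR and 19446, 19522 and 19140 with FGF2, so that the 3 groups did not overlap. Its E5 levels were 30684, 28312 and 30830 in developing RPE, 34444, 37896 and 35689 after retinectomy alone and 25778, 26012 and 22184 with FGF2, again with no overlap but with 6hPR highest. At E4 it fell after retinectomy (-0.64, SE 0.085, adjusted p = 0.00021 on the log2 scale) and with FGF2 against developing RPE (-1.0, SE 0.085, adjusted p = 1.9e-06). At E5 FGF2 lowered it against 6hPR at a log2 change of -0.55 (SE 0.085, adjusted p = 0.00034). Its change after retinectomy at E5 was a rise of 0.27 (SE 0.085, adjusted p = 0.04), lost in the fit of only the groups compared, with the replicate block, without the 2 libraries low in HINTW and without E5 developing replicates 1 or 2 or E5 6hPR replicates 2 or 3 (largest adjusted p 0.14). The stage difference of the response was 0.90 (SE 0.12, adjusted p = 0.0014) for 6hPR and 0.72 (SE 0.12, adjusted p = 0.004) for 6hPR + FGF2, both against developing RPE. In developing RPE it was lower at E5 (-0.37, SE 0.085, adjusted p = 0.0053), and in both operated conditions it was higher (0.53, SE 0.085, adjusted p = 0.0005 in 6hPR and 0.34, SE 0.085, adjusted p = 0.0076 in 6hPR + FGF2).

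ATP1B3, another beta subunit, moved the other way with FGF2. It was at 9492, 9605 and 9511 in E4 6hPR and 12868, 11706 and 12146 in FGF2-treated RPE, and at 10748, 10396 and 11047 and 13291, 12956 and 12892 in the same conditions at E5, with no overlap at either stage. The rise over 6hPR was 0.36 (SE 0.059, adjusted p = 0.0017) at E4 and 0.28 (SE 0.059, adjusted p = 0.0029) at E5 on the log2 scale. ATP1B4 was at 0 in 11 of 18 libraries and was not called in any comparison.

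**Figure D3:**
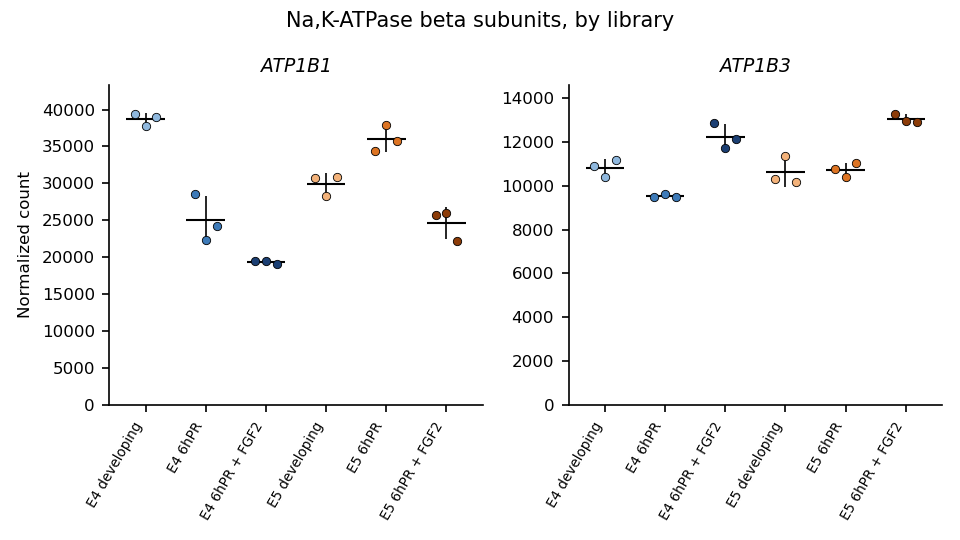
Normalized counts of 2 Na,K-ATPase beta subunits in the 18 libraries, by group, with the mean as a horizontal line and the SD (n = 3) as a vertical line. ATP1B1 falls from developing to 6hPR RPE at E4 (37798 to 39446 against 22298 to 28555) and is higher in 6hPR than in developing RPE at E5 (34444 to 37896 against 28312 to 30830).

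All 5 calcium pumps were called in at least 1 comparison, and ATP2A2, ATP2B1 and ATP2B4 rose with FGF2 at E5. ATP2B1 (ENSGALG00000030550), a plasma membrane calcium pump, was at 6146, 4924 and 3715 in developing RPE of E5, 5553, 4964 and 4879 in 6hPR and 9372, 8969.6 and 9258 with FGF2, the last group lying above the other libraries of that stage. It rose with FGF2 at E5 against developing (0.93, SE 0.14, adjusted p = 0.00015 on the log2 scale) and against 6hPR RPE (0.84, SE 0.14, adjusted p = 0.00063). The E4 developing libraries were at 5785, 6204 and 6558, those of 6hPR at 5911, 4714 and 6127 and those with FGF2 at 7142, 6489 and 7583 and was not called. ATP2B4, another plasma membrane pump, was at 10706, 7691 and 6825 in E5 developing RPE and 16655, 16116 and 15349 with FGF2, a rise of 0.96 (SE 0.16, adjusted p = 0.00032). It was also higher at E5 than at E4 under FGF2 (0.75, SE 0.16, adjusted p = 0.0029). ATP2A2 (ENSGALG00000032287), the pump that fills the endoplasmic reticulum with calcium, was at 14261, 13698 and 15297 in E5 6hPR and 17674, 17602 and 17904 in FGF2-treated RPE, and rose by 0.30 (SE 0.064, adjusted p = 0.0035).

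ATP2C1, which pumps calcium and manganese into the Golgi, was higher at E5 in developing RPE, with 8769, 8936 and 10021 at E4 and 14355, 13033 and 12631 at E5 (0.53, SE 0.089, adjusted p = 0.00058 on the log2 scale), and in 6hPR RPE (0.43, SE 0.089, adjusted p = 0.0029). At E4 it was at 8398, 9266 and 7859.6 in 6hPR and 11959, 10718 and 12975 with FGF2. That rise of 0.48 (SE 0.089, adjusted p = 0.0038) was lost in the fit of only the groups compared (largest adjusted p 0.1), and the one of 0.36 (SE 0.089, adjusted p = 0.0089) against developing RPE was lost in the fit of only the groups compared (largest adjusted p 0.055). ATP2A3, another pump of the endoplasmic reticulum, was called only in FGF2 against 6hPR at E4, at 1672, 1056 and 1113 in 6hPR and 660.1, 892 and 785 with FGF2 (-0.70, SE 0.19, adjusted p = 0.037). That call was lost in the fit of only the groups compared, without the 2 libraries low in HINTW and without E4 6hPR replicates 1 or 3 or E4 6hPR + FGF2 replicates 1 or 3 (largest adjusted p 0.2).

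Of the 3 sodium-calcium exchangers, which expel calcium in exchange for sodium, SLC8A3 (ENSGALG00000009400) was at 76.6, 44.0 and 96.0 in E4 and 191, 208 and 149.5 in E5 6hPR + FGF2 RPE, a stage difference of 1.39 (SE 0.35, adjusted p = 0.0085) on the log2 scale. The E5 libraries all lay above the E4 ones. SLC8A1 (ENSGALG00000008544) was at 377, 262 and 312 in E4 6hPR and 207, 177 and 154 in E5 6hPR RPE, lower at E5 at a log2 change of -0.81 (SE 0.2, adjusted p = 0.0096). The call was lost in the fit of only the groups compared, without the 2 libraries low in HINTW and without E4 6hPR replicate 1 (largest adjusted p 0.056). With FGF2 it was at 194, 255 and 201 at E4 and 332, 253 and 284 at E5, and its response to FGF2 over 6hPR differed between the stages (1.24, SE 0.29, adjusted p = 0.041), a call lost without the 2 libraries low in HINTW and without E4 6hPR replicates 1 or 3, E4 6hPR + FGF2 replicates 1 or 3, E5 6hPR replicates 2 or 3 or E5 6hPR + FGF2 replicates 1, 2 or 3 (largest adjusted p 0.17). SLC8A2 had a mean under 10 and was not called.

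Among the SLC4 bicarbonate transporters, which set intracellular pH and carry bicarbonate across epithelia, 8 of 9 were called in at least 1 comparison. SLC4A10 (ENSGALG00000030032), a sodium-driven bicarbonate carrier, had the largest stage difference in developing RPE among the transporters with a mean of 50 or more. Its level was 247, 268 and 285 in E4 developing against 2029, 1409 and 1644 in E5 developing RPE, 332, 248 and 330.2 against 1869, 1368 and 1298 in 6hPR and 152, 116 and 233 against 1206, 1140.4 and 759.7 in 6hPR + FGF2 RPE. Every E5 library was above every E4 library. The stage difference was 6.35-fold in developing (2.65, SE 0.24, adjusted p = 9.4e-06 on the log2 scale), 4.98-fold in 6hPR (2.31, SE 0.24, adjusted p = 2.4e-05) and 6.2-fold in 6hPR + FGF2 RPE (2.66, SE 0.24, adjusted p = 1.2e-05), with no interaction called. SLC4A10 was also called lower in 6hPR + FGF2 than in developing RPE at both stages. Against 6hPR it was lower with FGF2 at E4 (-0.91, SE 0.24, adjusted p = 0.032). That call was lost at least in the fit of only the groups compared, and the same comparison was not called at E5 (adjusted p = 0.11). In mammals SLC4A10 is abundant in neurons and the choroid plexus. The summed level of 13 neural retina neuron markers in E5 developing replicates 1, 2 and 3 was 10327, 28828 and 8311, and SLC4A10 was lowest in replicate 2. The part of neurons in the SLC4A10 level was not tested.

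SLC4A5 (ENSGALG00000032146), an electrogenic sodium bicarbonate cotransporter of the choroid plexus and kidney in mammals, was at 533, 557 and 675 in E4 developing and 3714, 2275 and 2744 in E5 developing RPE, 4.95-fold higher at E5 (2.28, SE 0.36, adjusted p = 0.00035 on the log2 scale). In E4 6hPR RPE its libraries were far apart, at 1198, 3156 and 712, and in E4 6hPR + FGF2 RPE they were at 2796, 2304 and 2058. It rose with FGF2 at E4 against developing RPE (2.01, SE 0.36, adjusted p = 0.00084). Its difference between 6hPR + FGF2 and 6hPR RPE was not called at E4 (adjusted p = 0.22). After retinectomy alone at E4 it rose by 1.25 (SE 0.36, adjusted p = 0.029), a call lost in the fit of only the groups compared and without E4 developing replicates 1, 2 or 3 or E4 6hPR replicates 1 or 2 (largest adjusted p 0.24). At E5 it was at 3728, 3032 and 3379 in 6hPR and 5680.0, 5357 and 5140.2 in 6hPR + FGF2 RPE and no treatment comparison was called.

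SLC4A4 (ENSGALG00000031105), the sodium bicarbonate cotransporter that in RPE takes up bicarbonate at the apical side, fell with treatment at both stages. For E4 the levels were 8318, 10191 and 9949.5 in developing, 5936, 1487 and 4430.4 in 6hPR and 2022, 1577 and 2623 in 6hPR + FGF2 RPE. At E5 the developing libraries spread from 5386 to 17547 (17547, 9205 and 5386), all above those of 6hPR (4304, 3719.9 and 3389) and 6hPR + FGF2 RPE (2383, 2362 and 2973). The fall with FGF2 against developing RPE was 4.57-fold at E4 (-2.22, SE 0.43, adjusted p = 0.0016 on the log2 scale) and 4.16-fold at E5 (-1.90, SE 0.43, adjusted p = 0.0034). FGF2 against 6hPR was called at neither stage (adjusted p = 0.33 at E4 and 0.35 at E5). The fall in 6hPR RPE was -1.48 (SE 0.43, adjusted p = 0.031) at E4, lost in the fit of only the groups compared, with edgeR and without E4 developing replicates 1, 2 or 3 or E4 6hPR replicate 2 (largest adjusted p 0.17). At E5 it was -1.33 (SE 0.43, adjusted p = 0.039), lost in the fit of only the groups compared, without the 2 libraries low in HINTW and without E5 developing replicates 1 or 2 or E5 6hPR replicates 1, 2 or 3 (largest adjusted p 0.17). E4 6hPR replicate 2 held the lowest SLC4A4 level of the 18 libraries and the highest SLC4A5, SLC39A12 and SLC9A2 levels of its group, and it was also the group's highest in summed erythrocyte markers (1235791 against 796321 and 892039).

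SLC4A7 (ENSGALG00000011405), an electroneutral sodium bicarbonate cotransporter, was called upward after surgery at E5. Among the E4 libraries it was at 1211, 1797 and 1467 in developing, 3140.0, 2224 and 3024 in 6hPR and 962, 1636 and 1789.8 in FGF2-treated RPE, the last overlapping the developing libraries. Its E5 levels were 1679, 1164 and 740.1 in developing RPE, 4252, 3166 and 3387 after retinectomy alone and 3347, 3507 and 3578 with FGF2, so that both operated groups lay above developing RPE. It rose at E5 in 6hPR (1.66, SE 0.27, adjusted p = 0.00043 on the log2 scale) and in 6hPR + FGF2 RPE (1.62, SE 0.27, adjusted p = 0.0003), and with FGF2 it was 2.38-fold higher at E5 than at E4 (1.30, SE 0.27, adjusted p = 0.0025). At E4 the rise in 6hPR was 0.91 (SE 0.27, adjusted p = 0.034), lost in the fit of only the groups compared, with the replicate block and without E4 developing replicates 1 or 3 or E4 6hPR replicates 1 or 3 (largest adjusted p 0.14), and the fall with FGF2 against 6hPR was -0.97 (SE 0.27, adjusted p = 0.036), lost in the fit of only the groups compared, with the replicate block and without E4 6hPR replicates 1 or 3 or E4 6hPR + FGF2 replicates 1 or 2 (largest adjusted p 0.17). The response to 6hPR + FGF2 against developing RPE differed between the stages by 1.68 (SE 0.38, adjusted p = 0.019), a call lost in the fit of only the groups compared and without E4 developing replicate 2 (largest adjusted p 0.06).

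The anion exchangers swap chloride for bicarbonate. SLC4A3 (ENSGALG00000011224) was at 2162, 2261 and 2094 in E4 developing and 3125, 2949.8 and 2788 in E4 6hPR RPE and rose by 0.44 (SE 0.076, adjusted p = 0.0013) on the log2 scale. At E5 the same groups were at 2562, 2319.6 and 2647 and 2648, 2545 and 2447 and overlapped. SLC4A2 was higher at E5 under FGF2, at 3293, 3089.7 and 2568 at E4 and 4647, 4968 and 4461 at E5 (0.66, SE 0.14, adjusted p = 0.0031). It was also called higher at E5 in developing RPE (adjusted p = 0.019) but not in 6hPR RPE (adjusted p = 0.27). SLC4A11, a transporter of the corneal endothelium in mammals, was called once, in 6hPR against developing RPE at E4 (0.87, SE 0.25, adjusted p = 0.028), a call lost in the fit of only the groups compared and without E4 developing replicates 1 or 3 or E4 6hPR replicates 1 or 3 (largest adjusted p 0.14).

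SLC4A1 (ENSGALG00000039978), the band 3 anion exchanger of red blood cells, was at 17012, 23407 and 19625 in E4 6hPR and 7538, 7497 and 6079 in E5 6hPR RPE, 2.84-fold lower at E5 (-1.50, SE 0.38, adjusted p = 0.01 on the log2 scale). The call was lost without the 2 libraries low in HINTW (largest adjusted p 0.054). The summed level of the 8 erythrocyte markers found in the table was 796321 to 1235791 in the first group and 344769 to 449884 in the second, with hemoglobin genes such as HBZ detected in every library. HBZ was the largest part of the sum (means 571897 and 191351), and HBAD, HBA1, HBE, HBE1 and EPB42 were also lower in E5 6hPR RPE. HBBA and RHAG went the other way, from means of 7409 and 14.9 in E4 6hPR to 13819 and 50.8 in E5 6hPR RPE. In all 6 groups the library lowest in SLC4A1 was also lowest in that sum, and in 5 of the 6 the library highest in SLC4A1 was highest in the sum. The part of red blood cells in the stage difference of SLC4A1 was not tested.

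**Figure D4:**
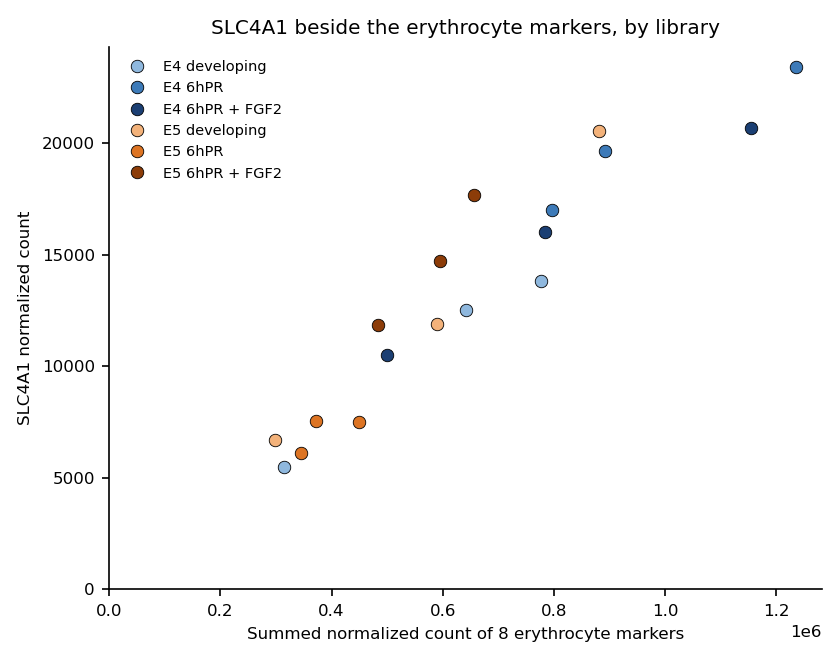
SLC4A1 normalized count (vertical axis) against the summed normalized count of 8 erythrocyte markers (horizontal axis), 1 point per library, colored by group. The 3 E5 6hPR libraries (6079 to 7538) lie low on both axes and the 3 E4 6hPR libraries (17012 to 23407) high on both.

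The sodium-proton exchangers of the SLC9 family export acid from the cell or into organelles. SLC9A2 (ENSGALG00000016791), an apical exchanger of epithelia, had the largest called log2 fold change in each of the 6 treatment comparisons among the transporters with a mean of 50 or more. The E4 developing libraries were at 34.2, 37.6 and 31.5, those of 6hPR at 169, 379 and 152 and those with FGF2 at 2164, 1129.5 and 903. For E5 the levels were 24.1, 13 and 12.2 in developing, 390, 323 and 344 in 6hPR and 3350.5, 3054 and 2416 in 6hPR + FGF2 RPE. The 3 conditions did not overlap at either stage. After retinectomy it was 6.78-fold higher at E4 (2.62, SE 0.36, adjusted p = 0.00024 on the log2 scale) and 21.5-fold higher at E5 (4.45, SE 0.36, adjusted p = 7.2e-07). With FGF2 it rose 40.6-fold over developing RPE at E4 (5.22, SE 0.36, adjusted p = 2.9e-07) and 179.1-fold at E5 (7.50, SE 0.36, adjusted p = 3.3e-09).

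FGF2 raised SLC9A2 beyond 6hPR at E5 as well, 8.34-fold (3.05, SE 0.36, adjusted p = 3.4e-05 on the log2 scale). At E4 the rise over 6hPR was 5.99-fold (2.60, SE 0.36, adjusted p = 0.00055), lost in the fit of only the groups compared (largest adjusted p 0.093). The response to 6hPR + FGF2 against developing RPE was larger at E5 by 2.27 (SE 0.5, adjusted p = 0.018), a call lost without the 2 libraries low in HINTW and without E4 developing replicate 2 or E5 6hPR + FGF2 replicate 1 (largest adjusted p 0.058). In developing RPE, SLC9A2 was lower at E5 at a log2 change of -1.11 (SE 0.36, adjusted p = 0.036), lost with a pseudocount of 5, in the fit of only the groups compared, with edgeR and without E4 developing replicates 1, 2 or 3 or E5 developing replicates 2 or 3 (largest adjusted p 0.13).

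SLC9A4, an exchanger of the stomach in mammals, was low and also rose over developing RPE. Unlike for SLC9A2, FGF2 against 6hPR was called at neither stage (adjusted p = 0.82 at E4 and 0.56 at E5). It was at 0 in all 3 E5 developing libraries, at 18.3, 20.2 and 23.8 in E5 6hPR and at 50.6, 32.7 and 26.4 in FGF2-treated RPE, at least 6.35-fold and at least 11.2-fold higher than the floor of 3 counts per library in developing RPE. Both differences were called (adjusted p = 0.00046 and 8.5e-05).

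SLC9A8 (ENSGALG00000008045), an exchanger of the Golgi and the apical membrane, was lower in both operated groups than in developing RPE at E5. It was at 2464, 2666 and 3006 in developing and 1916, 1838 and 1816 in 6hPR + FGF2 RPE (-0.54, SE 0.1, adjusted p = 0.00075). In E5 6hPR RPE its mean was 2142, also called lower than developing RPE (adjusted p = 0.027). FGF2 against 6hPR was not called at E5 (adjusted p = 0.14). SLC9A5 was lower with FGF2 than in 6hPR at E5, at 294, 288 and 281 and 176, 200 and 146 (-0.73, SE 0.18, adjusted p = 0.0077). SLC9A3, the exchanger of kidney and gut in mammals, was listed above 0 in 2 of 18 libraries, both E5 developing, at 11.5 and 6.00. It was called in 3 comparisons with that group, and each call was lost without E5 developing replicate 1 and without replicate 2 (largest adjusted p 0.26).

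The scaffolds that tether such exchangers to the cytoskeleton moved in opposite directions. SLC9A3R1 (ENSGALG00000007650), the NHERF1 scaffold of apical microvilli, was at 3557, 3269 and 3388 in developing RPE of E4, 2279.7, 3792 and 2073 in 6hPR and 14891, 10460 and 9678 with FGF2. Among the E5 libraries it was at 2501, 2323 and 3304 in developing, 3269, 3766 and 3234 in 6hPR and 8686, 8569.6 and 9838 in FGF2-treated RPE. The FGF2 libraries lay above all others at both stages, while developing and 6hPR RPE overlapped. It rose with FGF2 against developing RPE 3.43-fold at E4 (1.75, SE 0.2, adjusted p = 2.1e-05 on the log2 scale) and 3.33-fold at E5 (1.75, SE 0.2, adjusted p = 9.5e-06), and against 6hPR 2.64-fold at E5 (1.40, SE 0.2, adjusted p = 0.00018). Against 6hPR at E4 it rose 4.3-fold (2.13, SE 0.2, adjusted p = 3.3e-05), lost in the fit of only the groups compared (largest adjusted p 0.055).

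SLC9A3R2 (ENSGALG00000005608), the NHERF2 scaffold, was at 8032, 7205 and 9014 in developing RPE of E5, 6906, 6917 and 7163 in 6hPR and 4508, 4570.4 and 3519 with FGF2, with the last group below the rest. It fell with FGF2 at E5 against developing (-0.95, SE 0.098, adjusted p = 3.9e-06 on the log2 scale) and 6hPR RPE (-0.75, SE 0.098, adjusted p = 9.5e-05). At E4 it was at 6648, 7178 and 6401 in 6hPR and 5104, 4601 and 4894 with FGF2, a fall at a log2 change of -0.47 (SE 0.098, adjusted p = 0.008) that was lost in the fit of only the groups compared (largest adjusted p 0.054). SLC4A1AP (ENSGALG00000010047), the third partner protein, was at 2649, 2937 and 3367 in E5 6hPR RPE, above all other libraries of both stages. It was higher there than in E4 6hPR (0.48, SE 0.094, adjusted p = 0.002) and fell with FGF2 at E5 (-0.48, SE 0.094, adjusted p = 0.0019).

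Of the cation-chloride cotransporters, which set cell volume and intracellular chloride, those that expel potassium and chloride were called upward. SLC12A2, which loads chloride, was called downward with FGF2 in 2 of the 9 comparisons, and neither call was kept under every alternative. SLC12A5 (ENSGALG00000042199), the KCC2 exporter known from neurons in mammals, was at 454, 512 and 507 in developing RPE of E4, 736, 1155 and 644 in 6hPR and 1192, 1090.2 and 1175 with FGF2. Its E5 levels were 516, 408 and 782 in developing RPE, 1370.2, 1277 and 1173 after retinectomy alone and 2298, 2186 and 2038 with FGF2, with no overlap among the 3 conditions. Relative to developing RPE it rose with FGF2 2.35-fold at E4 (1.23, SE 0.21, adjusted p = 0.00063 on the log2 scale) and 3.82-fold at E5 (1.98, SE 0.21, adjusted p = 4.7e-06). SLC12A5 was called higher with FGF2 than in 6hPR at E5 (adjusted p = 0.014) but not at E4 (adjusted p = 0.18). In 6hPR RPE at E5 it rose by 1.21 (SE 0.21, adjusted p = 0.00076), lost in the fit of only the groups compared (largest adjusted p 0.058). In E5 developing replicate 2, the library highest in neuron markers, SLC12A5 was at 408, and the part of neurons in its level was not tested.

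SLC12A7, the KCC4 exporter, was at 1841, 1798 and 1730.1 in developing RPE and 3588, 2556 and 3451 with FGF2 at E4, and at 2748, 2521 and 2568 and 5584, 5815 and 4998 in these conditions at E5. It rose with FGF2 over developing RPE at E4 (0.82, SE 0.15, adjusted p = 0.00089 on the log2 scale) and at E5 (1.06, SE 0.15, adjusted p = 6e-05), and was higher at E5 in developing (0.55, SE 0.15, adjusted p = 0.014), 6hPR (0.96, SE 0.15, adjusted p = 0.00033) and 6hPR + FGF2 RPE (0.79, SE 0.15, adjusted p = 0.0013). At E5 the 6hPR mean of SLC12A7 was 4280, already called above developing RPE (adjusted p = 0.0031). FGF2 against 6hPR was not called there (adjusted p = 0.083). At E4 that step was called (adjusted p = 0.036) but lost at least in the fit of only the groups compared. SLC12A4, the widely used KCC1 exporter, was at 7877, 6669 and 7009.6 in E5 6hPR and 10974, 10737 and 10578 in FGF2-treated RPE, a rise of 0.59 (SE 0.086, adjusted p = 0.00022).

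SLC12A2 (ENSGALG00000014690), the NKCC1 cotransporter that loads sodium, potassium and chloride at the apical side of RPE, was at 24860, 31933 and 28608 in developing RPE of E4, 30051, 19664 and 24283 in 6hPR and 10444, 11789 and 23382 with FGF2. E4 6hPR + FGF2 replicate 3, a library low in HINTW, was the highest of its group and overlapped 6hPR. The fall with FGF2 against developing RPE at E4 was 1.87-fold (-0.99, SE 0.24, adjusted p = 0.0088 on the log2 scale), lost in the fit of only the groups compared and without E4 6hPR + FGF2 replicate 1 (largest adjusted p 0.11). At E5 it was at 41333, 33770 and 37737 in 6hPR and 22104, 22819 and 21136 in 6hPR + FGF2 RPE, a fall at a log2 change of -0.77 (SE 0.24, adjusted p = 0.03), lost without E5 6hPR replicates 1, 2 or 3 or E5 6hPR + FGF2 replicates 1, 2 or 3 (largest adjusted p 0.081). The mean in E5 developing RPE was 29168, between those of the operated groups, and neither of these was called against it. SLC12A1, a kidney cotransporter in mammals, was at 0 in 15 libraries and not called.

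Of the 9 SLC26 anion exchangers, 4 had a mean of 50 or more. SLC26A11, an anion exchanger and chloride channel of wide distribution, was at 531, 521 and 571 in developing RPE of E4, 858, 1038 and 915 in 6hPR and 1181, 1174 and 1072 with FGF2, each condition above the one before. The E5 developing libraries were at 734, 585 and 809.8, those of 6hPR at 1650.4, 1766 and 1771 and those with FGF2 at 1724, 1696 and 1604, where the operated groups overlapped. The rise after retinectomy was 1.73-fold at E4 (0.79, SE 0.11, adjusted p = 0.0003 on the log2 scale) and 2.44-fold at E5 (1.30, SE 0.11, adjusted p = 1.2e-06). With FGF2 the rise over developing RPE was 1.08 (SE 0.11, adjusted p = 9.3e-06) at E4 and 1.25 (SE 0.11, adjusted p = 9.3e-07) at E5, and FGF2 against 6hPR was called at neither stage.

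SLC26A5 (ENSGALG00000008222), known as prestin, the motor protein of outer hair cells in mammals, was called in comparisons with FGF2, while 6hPR against developing RPE was called at neither stage. It was at 1771, 1306 and 1224 in developing RPE of E5, 1247, 1057 and 1191 in 6hPR and 2977, 2885 and 2631 with FGF2, with the last group well above the others. The rise over 6hPR was 2.43-fold (1.28, SE 0.12, adjusted p = 5.6e-06 on the log2 scale) and that over developing RPE 1.97-fold (1.00, SE 0.12, adjusted p = 1.8e-05). At E4 it was at 1206, 1105 and 1056 in 6hPR and 1812, 1656 and 1601 with FGF2, a rise of 0.59 (SE 0.12, adjusted p = 0.0072) that was lost in the fit of only the groups compared (largest adjusted p 0.052). SLC26A3, an exchanger of the colon in mammals, was listed at 60.9 in E5 6hPR replicate 3, the library highest in yolk sac or liver markers, and at 0 in the other 17. SLC26A1, a sulfate carrier, was at 0, 0 and 18.3 in E4 and 38.4, 32.7 and 19.3 in E5 6hPR + FGF2 RPE.

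The sodium-coupled carriers of phosphate, sulfate and carboxylates were lower in 6hPR + FGF2 RPE wherever it was called against developing or 6hPR RPE. SLC13A4 (ENSGALG00000012908), a sulfate cotransporter, was at 86.0, 62.1 and 115 in developing RPE of E4, 75.3, 62.3 and 79.9 in 6hPR and 68.2, 36.4 and 43.1 with FGF2. For E5 the levels were 348, 266 and 286 in developing, 258, 319 and 314 in 6hPR and 116, 151 and 35.6 in 6hPR + FGF2 RPE, so the E5 FGF2 libraries lay below the other E5 libraries. It was 3.43-fold higher at E5 in developing (1.81, SE 0.42, adjusted p = 0.0054 on the log2 scale) and 4.1-fold in 6hPR RPE (2.03, SE 0.42, adjusted p = 0.0028). With FGF2 at E5 it fell at a log2 change of -1.79 (SE 0.42, adjusted p = 0.0042) against developing RPE, lost in the fit of only the groups compared (largest adjusted p 0.11), and at a log2 change of -1.78 (SE 0.42, adjusted p = 0.0059) against 6hPR, lost in the fit of only the groups compared (largest adjusted p 0.07).

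SLC13A3 (ENSGALG00000054473), a cotransporter of dicarboxylates such as succinate, was at 1399, 1282 and 1259.6 in E4 developing and 2549.9, 2050.5 and 3189 in E5 developing RPE, higher at E5 by 0.96 (SE 0.19, adjusted p = 0.0018) on the log2 scale. At E5 it was at 2488, 2573 and 2661 in 6hPR and 1277, 1470.3 and 1384 with FGF2, which was below both other groups. The fall with FGF2 at E5 was -0.89 (SE 0.19, adjusted p = 0.0021) against developing and -0.90 (SE 0.19, adjusted p = 0.0029) against 6hPR RPE. SLC13A5 (ENSGALG00000005995), a citrate cotransporter, was at 121, 93.6 and 138 in E4 developing RPE and 52.5, 67.0 and 64.7 with FGF2, a fall at a log2 change of -0.92 (SE 0.24, adjusted p = 0.014) that was lost without E4 developing replicate 3 or E4 6hPR + FGF2 replicate 1 (largest adjusted p 0.066).

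SLC20A1 (ENSGALG00000013740), a phosphate importer that also serves as a retrovirus receptor in mammals, was at 5721, 4746 and 7419.8 in developing RPE of E5, 3637, 4187 and 4157 in 6hPR and 3497, 3485 and 3668 with FGF2, where no operated library reached a developing one. The fall in 6hPR + FGF2 against developing RPE was -0.72 (SE 0.12, adjusted p = 0.0003) on the log2 scale. FGF2 against 6hPR was called at neither stage (adjusted p = 0.33 at E5). After retinectomy at E4 it went from 6614, 6478 and 6642 to 4576, 4826 and 4823, a fall at a log2 change of -0.47 (SE 0.12, adjusted p = 0.016), lost without E4 developing replicates 1 or 3 or E4 6hPR replicate 1 (largest adjusted p 0.058). At E5 the fall was -0.56 (SE 0.12, adjusted p = 0.0038), lost in the fit of only the groups compared (largest adjusted p 0.15). SLC20A2, its paralog, was between 2082 and 2759 in all 18 libraries and was not called. SLC34A1 and SLC34A2, phosphate cotransporters of kidney and gut in mammals, had means under 10.

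The SLC30 family exports zinc from the cytosol. SLC30A2 (ENSGALG00000010375), which loads zinc into vesicles, was at 70.3, 56.9 and 43.6 in developing RPE of E4, 147, 194 and 94.6 in 6hPR and 366, 189 and 182 with FGF2, and at 214, 207 and 269, 577, 688 and 629 and 279, 255 and 308 at E5. The E5 libraries were above the E4 ones in developing and in 6hPR RPE, and overlapped them with FGF2. The stage difference was 4.04-fold in developing (2.02, SE 0.29, adjusted p = 0.00018 on the log2 scale) and 4.35-fold in 6hPR RPE (2.17, SE 0.29, adjusted p = 0.00011). At E5 it rose after retinectomy (1.46, SE 0.29, adjusted p = 0.0021) and was lower with FGF2 than in 6hPR (-1.17, SE 0.29, adjusted p = 0.0082), while at E4 it rose with FGF2 against developing RPE (2.05, SE 0.29, adjusted p = 0.00013). FGF2 against 6hPR was not called at E4 (adjusted p = 0.13). The response to FGF2 over 6hPR differed between the stages by -1.91 (SE 0.41, adjusted p = 0.031), a call lost without the 2 libraries low in HINTW and without E4 6hPR replicates 1 or 3, E5 6hPR replicates 2 or 3 or E5 6hPR + FGF2 replicates 1 or 2 (largest adjusted p 0.098). The response to 6hPR + FGF2 against developing RPE differed by -1.76 (SE 0.41, adjusted p = 0.022), lost without E4 developing replicates 2 or 3 or E5 6hPR + FGF2 replicates 1 or 2 (largest adjusted p 0.055).

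SLC30A10 (ENSGALG00000026727), a manganese exporter in mammals, went the other way at E5. It was at 1449, 509 and 574 in developing RPE of E5, 393, 251 and 137 in 6hPR and 822, 914 and 661 with FGF2, with 6hPR below the other groups. FGF2 raised it 3.07-fold over 6hPR (1.73, SE 0.39, adjusted p = 0.0051 on the log2 scale). The fall after retinectomy at E5 was -1.65 (SE 0.39, adjusted p = 0.0077), lost in the fit of only the groups compared and without the 2 libraries low in HINTW (largest adjusted p 0.17). In E4 6hPR RPE it was at 735, 688 and 675, so that E5 was lower at a log2 change of -1.55 (SE 0.39, adjusted p = 0.011), a call lost in the fit of only the groups compared, without the 2 libraries low in HINTW and without E5 6hPR replicate 3 (largest adjusted p 0.071). Its stage difference in the response to retinectomy was -2.28 (SE 0.56, adjusted p = 0.04), lost in the fit of only the groups compared, without the 2 libraries low in HINTW and without E4 developing replicates 1 or 3, E4 6hPR replicates 1, 2 or 3, E5 developing replicate 1 or E5 6hPR replicates 2 or 3 (largest adjusted p 0.13).

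SLC30A4 (ENSGALG00000005703), a zinc carrier of endosomes and vesicles, fell after retinectomy at E4, from 10371, 9605 and 10840 to 7825, 8022 and 8169.8 (-0.36, SE 0.062, adjusted p = 0.0012 on the log2 scale). At E5 it was at 12153, 11812 and 11547 in developing and 10535, 10014 and 9926 in 6hPR + FGF2 RPE, a fall at a log2 change of -0.22 (SE 0.062, adjusted p = 0.014). In E5 6hPR RPE its mean was 9900, also called lower than developing RPE (adjusted p = 0.0076). FGF2 against 6hPR was not called at E5 (adjusted p = 0.69). SLC30A1 (ENSGALG00000009858), the exporter of the plasma membrane, was at 3407, 3270.5 and 3259 in E4 and 5313, 5128 and 4735 in E5 6hPR RPE, higher at E5 by 0.61 (SE 0.08, adjusted p = 0.00011), and under FGF2 by 0.51 (SE 0.08, adjusted p = 0.0004). SLC30A8, which loads insulin granules with zinc in mammals, was at 13.6, 0 and 0 in E5 developing RPE and 90.9, 76.0 and 104 with FGF2, 19.9-fold higher in mean (5.89, SE 1.2, adjusted p = 0.0017), a call lost in the fit of only the groups compared (largest adjusted p 0.053). In E5 6hPR RPE its mean was 20.9, called above developing RPE (adjusted p = 0.048), and FGF2 against 6hPR was not called (adjusted p = 0.18).

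The SLC39 family brings zinc into the cytosol, and its members named here moved in opposite directions. SLC39A12 (ENSGALG00000008602), an importer best known from brain in mammals, was at 262, 172 and 280 in developing RPE of E4, 573, 984 and 478 in 6hPR and 2077, 1157 and 1590.2 with FGF2. Among the E5 libraries it was at 1759.5, 870.2 and 1769.8 in developing, 4952, 4887 and 4134 in 6hPR and 7005, 6849 and 4728 in FGF2-treated RPE. Each E5 group lay above the E4 group of its condition, and developing RPE was the lowest condition at both stages. The stage difference was 6.17-fold in developing (2.58, SE 0.31, adjusted p = 5.2e-05 on the log2 scale), 6.86-fold in 6hPR (2.84, SE 0.31, adjusted p = 3e-05) and 3.85-fold in 6hPR + FGF2 RPE (1.96, SE 0.31, adjusted p = 0.00042). Against developing RPE it rose with FGF2 by 2.75 (SE 0.31, adjusted p = 2.1e-05) at E4 and 2.13 (SE 0.31, adjusted p = 0.00011) at E5, and after retinectomy alone by 1.74 (SE 0.31, adjusted p = 0.0011) at E5. The rise after retinectomy at E4 was 1.47 (SE 0.31, adjusted p = 0.0055), lost in the fit of only the groups compared (largest adjusted p 0.064). FGF2 against 6hPR was called at E4 (adjusted p = 0.02) but lost at least in the fit of only the groups compared. At E5 that step was not called (adjusted p = 0.38).

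SLC39A10 (ENSGALG00000007777), an importer of the plasma membrane, fell with every treatment. It was at 19453, 23057 and 24698 in developing RPE of E4, 12859, 8503 and 10642 in 6hPR and 8013, 6529.8 and 8198 with FGF2. Its E5 levels were 46881, 37685 and 27162 in developing RPE, 13917, 10204 and 10129 after retinectomy alone and 13305, 13377 and 14131 with FGF2. No operated library reached the lowest developing library of its stage. The fall after retinectomy was 2.1-fold at E4 (-1.08, SE 0.19, adjusted p = 0.0013 on the log2 scale) and 3.26-fold at E5 (-1.69, SE 0.19, adjusted p = 1.6e-05). With FGF2 the fall against developing RPE was 2.96-fold at E4 (-1.56, SE 0.19, adjusted p = 3.4e-05) and 2.74-fold at E5 (-1.42, SE 0.19, adjusted p = 4e-05). FGF2 against 6hPR was called at neither stage.

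SLC39A6 (ENSGALG00000013209), which pairs with SLC39A10 in mammals, had another pattern. It was at 1913, 1382 and 1449 in E5 6hPR and 4325, 4236 and 4191 in FGF2-treated RPE, a rise of 2.69-fold (1.44, SE 0.21, adjusted p = 0.0002 on the log2 scale). At E4 the same groups, at 2397, 1764 and 2362 and 2251, 2540.3 and 2801, overlapped. SLC39A13, an importer that serves connective tissue in mammals, was at 5384, 4873 and 5032 in developing RPE of E5, 5809, 5274 and 5881 in 6hPR and 9038, 8664 and 8600.2 with FGF2. It rose with FGF2 against developing RPE at E4 (0.43, SE 0.084, adjusted p = 0.002) and E5 (0.78, SE 0.084, adjusted p = 5.7e-06). SLC39A8 (ENSGALG00000012298), a carrier of zinc and manganese, was at 1594, 1586 and 1722 in E4 and 787, 605 and 552 in E5 6hPR RPE, 2.52-fold lower at E5 (-1.35, SE 0.29, adjusted p = 0.0036).

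**Figure D5:**
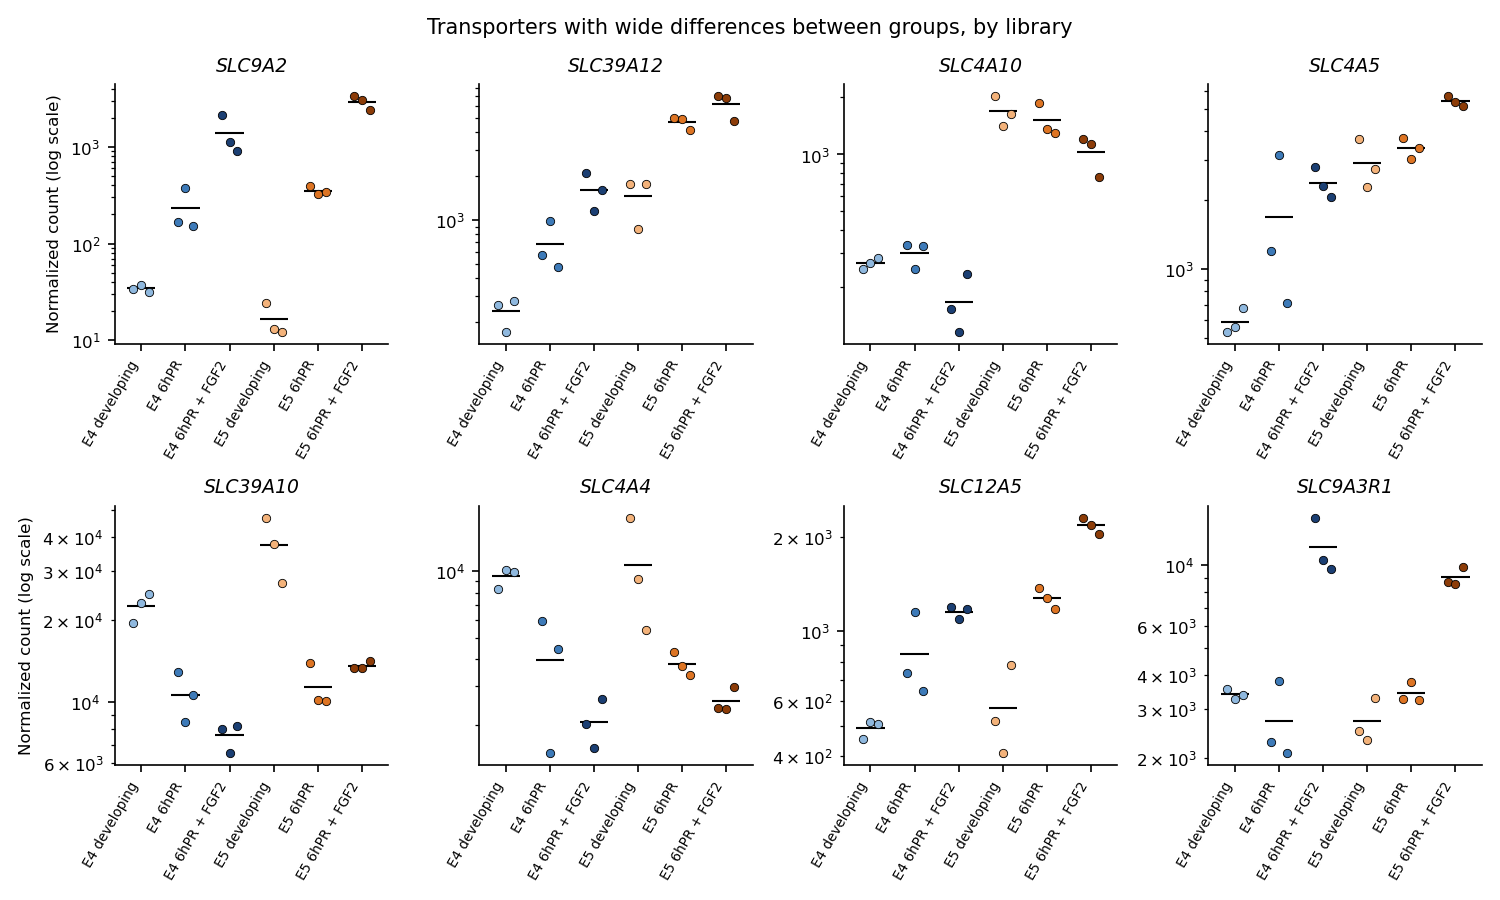
Normalized counts on a log scale of 8 named genes in the 18 libraries, by group, with 1 point per library and the mean as a horizontal line. SLC9A2 climbs from 12.2 to 24.1 in E5 developing to 2416.5 to 3350.5 in E5 6hPR + FGF2 RPE, SLC4A10 separates by stage, and SLC39A10 and SLC4A4 are highest in developing RPE at both stages.

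Of the 3 magnesium carriers of the SLC41 family, SLC41A2 (ENSGALG00000012697) was at 5217, 5372 and 6476 in developing RPE of E5, 2826, 2850.2 and 2144 in 6hPR and 2255, 2355 and 2319.9 with FGF2, so that both operated groups lay below developing RPE. The fall at E5 was -1.13 (SE 0.15, adjusted p = 0.0001) on the log2 scale in 6hPR and -1.29 (SE 0.15, adjusted p = 1.5e-05) in 6hPR + FGF2 RPE. At E4 it was at 3345, 3010.4 and 4202 in developing and 2594, 2402 and 3377 with FGF2, and the response differed between the stages by -0.96 (SE 0.22, adjusted p = 0.021), lost without E4 developing replicate 2 or E5 6hPR + FGF2 replicate 1 (largest adjusted p 0.062). SLC41A1 (ENSGALG00000000721), a sodium-magnesium exchanger of the plasma membrane, rose with FGF2 over 6hPR at E5, from 5365, 4917 and 4351 to 7697, 7387 and 8474 (0.69, SE 0.1, adjusted p = 0.00021). It rose at E4 against developing RPE, from 4171, 4797 and 4588 to 6880.2, 5708 and 6008 (0.45, SE 0.1, adjusted p = 0.0044), and was higher at E5 in developing RPE (0.51, SE 0.1, adjusted p = 0.0019).

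The copper pumps supply tyrosinase and other copper enzymes. ATP7A was at 4426, 5366 and 5372 in E4 developing RPE and 2642, 2919 and 3841 with FGF2, a fall at a log2 change of -0.70 (SE 0.21, adjusted p = 0.026), lost without E4 developing replicates 2 or 3 or E4 6hPR + FGF2 replicates 1 or 2 (largest adjusted p 0.11). FGF2 against 6hPR was not called for ATP7A at E4 (adjusted p = 0.098). ATP7B was at 1898, 1302 and 2166 in E4 and 3392, 3889.6 and 3802 in E5 6hPR + FGF2 RPE, 2.07-fold higher at E5 (1.08, SE 0.25, adjusted p = 0.0049). SLC40A1 (ferroportin), the iron exporter, was at 3069, 3244 and 3186 and 4652, 4846 and 3636 in the same groups and was higher at E5 by 0.46 (SE 0.1, adjusted p = 0.0036). ATP7B was also called higher at E5 in 6hPR RPE (adjusted p = 0.0065) but not in developing RPE (adjusted p = 0.2). SLC40A1 was also called higher at E5 in developing RPE (adjusted p = 0.033) but not in 6hPR RPE (adjusted p = 0.51). SLC11A2, the iron importer DMT1, was called in 2 comparisons. SLC11A1, its homolog of macrophages in mammals, and the magnesium carrier SLC41A3 were called in none.

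The 20 members called in none of the 9 comparisons include 8 with a mean under 10 (ATP1B4, SLC8A2, SLC12A1, SLC26A3, SLC26A4, SLC26A6, SLC34A1 and SLC34A2), 2 with a mean of 10 to 50 (SLC26A9 and SLC30A3) and 10 with a mean of 50 or more. The last are SLC4A8, SLC9A9, SLC11A1, SLC20A2, SLC26A8, SLC30A6, SLC39A3, SLC39A9, SLC39A11 and SLC41A3. Among the called members not described above were SLC9A7, SLC26A2, SLC30A5, SLC30A7, SLC30A9 and SLC39A14, each in 1 to 3 comparisons. Of these, SLC30A7, a zinc carrier of the early secretory pathway, rose with FGF2 over 6hPR at E5 from 3167, 2744 and 2803 to 4052, 3954 and 4084 (0.48, SE 0.096, adjusted p = 0.0024 on the log2 scale). SLC30A9 was at 2809, 2782 and 2803 in E4 and 3921, 3893 and 3854 in E5 6hPR + FGF2 RPE, higher at E5 by 0.48 (SE 0.084, adjusted p = 0.00088). It was also called higher at E5 in 6hPR RPE (adjusted p = 0.044). For a low gene a difference may be too small to detect at this depth, and a missing call does not show that levels were equal.

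Genes that work with these transporters were read from 7 lists by counts alone. In developing RPE, where 10.8% of all genes were called higher and 11.1% lower at E5, the counts were 7 higher and 0 lower of 9 tested partners and regulators of the Na,K-ATPase (such as FXYD and SGK proteins), 4 and 0 of 14 partners of bicarbonate transport (such as carbonic anhydrases), and 4 and 1 of 14 kinases and channels around the cation-chloride cotransporters. For 25 calcium handling genes they were 9 and 1, for 8 phosphate genes 1 and 1, for 13 zinc and magnesium genes 3 and 0, and for 29 iron and copper genes 5 and 3. In 6hPR RPE (11.3% and 8.41% of all genes) the counts of the same lists, in that order, were 2 higher and 0 lower, 4 and 2, 3 and 0, 9 and 2, 0 and 2, 4 and 0, and 8 and 2. With FGF2 (16.7% and 12.8%) they were 1 higher and 1 lower, 2 and 0, 8 and 0, 6 and 0, 3 and 1, 5 and 0, and 8 and 5. In developing RPE no list held more lower than higher calls. In 6hPR + FGF2 against developing RPE at E5 (15.1% and 13.7%), 2 rose and 3 fell among the partners of the Na,K-ATPase, 5 and 4 among those of bicarbonate transport, 6 and 2 among the kinases and channels, 2 and 2 among the calcium genes, 4 and 1 among the phosphate genes, 6 and 2 among the zinc and magnesium genes, and 4 and 2 among the iron and copper genes. These counts are a description.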

How the data were processed

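RNA sequencing of 18 pools of chicken RPE was analysed, with 3 pools in each of 6 groups and 3 RPE sheets per pool. Per the study's methods, the authors trimmed reads with Trim Galore and Cutadapt, aligned them to GRCg6a with STAR, counted genes with StringTie, dropped low genes and divided the counts by DESeq2 size factors. The deposited values are thus a normalized count signal per gene, not corrected for length. The library kit keeps strand, but whether the counting used it is not given in the sources used here, so overlapping and antisense genes may share reads. The labels and the methods name different egg sources. Whole reads were recovered from the normalized counts (100% of values whole within 1e-06).

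Group means of log2(normalized count + 0.5) were fitted over all 18 libraries with limma 3.58.1 in R 4.3.3, with a trended variance, on the 18287 genes whose values sum to 10 or more, and p-values were adjusted by the Benjamini-Hochberg method over all of them. The same tests were tried on recovered reads with edgeR 4.0.16 and DESeq2 1.42.0, with other pseudocounts, filters and scaling, with a replicate block and with libraries left out. The test without both libraries low in HINTW was chosen after seeing the data. The fitting code was tested on simulated data. Genes named in the text are, per comparison, the 3 highest and 3 lowest called members among those whose groups did not overlap and whose mean reached 50, members with a called interaction, and the member of each role with the highest mean count, not corrected for length, 36 in all. Some members enter the fits and the counts but are not reported here by name. Other members were named for their known role or after their values were seen. The members and lists were chosen with earlier results of these data known. The lists of other cell types were read as sums of normalized counts, and the lists of partner genes by counts of calls.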

Additional observations from a re-analysis of the deposited data

Results flagged for a closer look

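The responses of the transporters below differed between E4 and E5 by the limma interaction term, given here as the response at E5 minus that at E4 on the log2 scale. For 6hPR against developing RPE the difference was 0.90 (adjusted p = 0.0014) for ATP1B1, 0.53 (adjusted p = 0.043) for SLC4A1AP and 0.46 (adjusted p = 0.04) for SLC30A1. It was -2.28 (adjusted p = 0.04) for SLC30A10 and -0.42 (adjusted p = 0.048) for SLC4A3. Of those named here, only that of ATP1B1 was kept under every alternative. The call for SLC4A1AP was lost with TMM scaling, in the fit of only the groups compared, without the 2 libraries low in HINTW and without E4 developing replicates 1, 2 or 3, E4 6hPR replicates 1 or 3, E5 developing replicate 1 or E5 6hPR replicates 2 or 3 (largest adjusted p 0.12). For SLC30A1 it was lost in the fit of only the groups compared, with the replicate block, without the 2 libraries low in HINTW and without E4 developing replicates 2 or 3, E4 6hPR replicates 1, 2 or 3, E5 developing replicates 2 or 3 or E5 6hPR replicates 1, 2 or 3 (largest adjusted p 0.1). That of SLC4A3 was lost in the fit of only the groups compared, with the replicate block, with edgeR, without the 2 libraries low in HINTW and without E4 developing replicates 1, 2 or 3, E4 6hPR replicates 1, 2 or 3, E5 developing replicates 1 or 3 or E5 6hPR replicates 1, 2 or 3 (largest adjusted p 0.12). For SLC30A10 the call was lost in the fit of only the groups compared, without the 2 libraries low in HINTW and without E4 developing replicates 1 or 3, E4 6hPR replicates 1, 2 or 3, E5 developing replicate 1 or E5 6hPR replicates 2 or 3 (largest adjusted p 0.13).

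For 6hPR + FGF2 against developing RPE it was 2.27 (adjusted p = 0.018) for SLC9A2, 1.68 (adjusted p = 0.019) for SLC4A7, 0.74 (adjusted p = 0.043) for ATP2B1 and 0.72 (adjusted p = 0.004) for ATP1B1. It was -1.76 (adjusted p = 0.022) for SLC30A2, -1.13 (adjusted p = 0.023) for SLC13A3, -0.96 (adjusted p = 0.021) for SLC41A2 and -0.60 (adjusted p = 0.022) for SLC9A3R2. Here too only ATP1B1 was kept under every alternative. The call for ATP2B1 was lost in the fit of only the groups compared, with the replicate block, with edgeR, without the 2 libraries low in HINTW and without E4 developing replicates 1, 2 or 3, E4 6hPR + FGF2 replicates 1, 2 or 3, E5 developing replicates 2 or 3 or E5 6hPR + FGF2 replicates 1, 2 or 3 (largest adjusted p 0.1). For SLC13A3 it was lost without E4 developing replicates 2 or 3, E4 6hPR + FGF2 replicate 1, E5 6hPR + FGF2 replicate 1 or E5 developing replicate 3 (largest adjusted p 0.063). That of SLC9A3R2 was lost in the fit of only the groups compared, without the 2 libraries low in HINTW and without E4 developing replicate 3 or E4 6hPR + FGF2 replicate 1 (largest adjusted p 0.065). For SLC9A2 the call was lost without the 2 libraries low in HINTW and without E4 developing replicate 2 or E5 6hPR + FGF2 replicate 1 (largest adjusted p 0.058). For SLC4A7 it was lost in the fit of only the groups compared and without E4 developing replicate 2 (largest adjusted p 0.06). That of SLC30A2 was lost without E4 developing replicates 2 or 3 or E5 6hPR + FGF2 replicates 1 or 2 (largest adjusted p 0.055), and that of SLC41A2 without E4 developing replicate 2 or E5 6hPR + FGF2 replicate 1 (largest adjusted p 0.062).

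For 6hPR + FGF2 against 6hPR RPE it was 1.24 (adjusted p = 0.041) for SLC8A1, 1.21 (adjusted p = 0.045) for SLC39A6, 0.69 (adjusted p = 0.047) for SLC26A5 and -1.91 (adjusted p = 0.031) for SLC30A2. None of these 4 was called without both libraries low in HINTW. These 3 interaction contrasts share groups, and ATP1B1 and SLC30A2 each appear in more than 1 of them. SLC39A6 was also lost with the replicate block, without the 2 libraries low in HINTW and without E4 6hPR replicates 1 or 3, E4 6hPR + FGF2 replicates 1, 2 or 3, E5 6hPR replicates 2 or 3 or E5 6hPR + FGF2 replicates 1, 2 or 3 (largest adjusted p 0.16), SLC26A5 with edgeR, without the 2 libraries low in HINTW and without E4 6hPR replicates 1 or 3, E4 6hPR + FGF2 replicates 1, 2 or 3, E5 6hPR replicates 2 or 3 or E5 6hPR + FGF2 replicates 1, 2 or 3 (largest adjusted p 0.17), SLC8A1 without the 2 libraries low in HINTW and without E4 6hPR replicates 1 or 3, E4 6hPR + FGF2 replicates 1 or 3, E5 6hPR replicates 2 or 3 or E5 6hPR + FGF2 replicates 1, 2 or 3 (largest adjusted p 0.17) and SLC30A2 without the 2 libraries low in HINTW and without E4 6hPR replicates 1 or 3, E5 6hPR replicates 2 or 3 or E5 6hPR + FGF2 replicates 1 or 2 (largest adjusted p 0.098).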

How the results depend on the processing

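No call reversed under any alternative. Of the 231 calls in the 9 comparisons between groups, 116 were kept under every alternative, and of the 18 stage interactions 3 were kept, among them those of ATP1B1 for 6hPR and for 6hPR + FGF2 against developing RPE. The fit of only the groups compared, which has fewer samples to estimate the spread, lost the most calls. It called 11 transporters between the stages in developing RPE, 11 in 6hPR against developing RPE at E4 and 10 at E5, 1 in 6hPR + FGF2 against 6hPR at E4, and interactions for 3 in 6hPR against developing and 9 in 6hPR + FGF2 against 6hPR RPE. DESeq2 called 11, 18 and 16 interactions for 6hPR against developing, 6hPR + FGF2 against developing and 6hPR + FGF2 against 6hPR RPE. Without both libraries low in HINTW, 11 transporters were called in 6hPR + FGF2 against 6hPR at E4, with 2 interactions for 6hPR against developing and 0 for 6hPR + FGF2 against 6hPR RPE by limma (DESeq2 on all libraries called 16). The cause of these shifts was not tested.

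Leaving out 1 library at a time, the transporters called ranged from 13 to 20 between the stages in developing, 18 to 29 in 6hPR and 25 to 31 in 6hPR + FGF2 RPE. They ranged from 8 to 16 at E4 and 16 to 28 at E5 in 6hPR against developing RPE, from 18 to 28 and 29 to 38 in 6hPR + FGF2 against developing RPE, and from 8 to 21 and 22 to 30 in 6hPR + FGF2 against 6hPR RPE. Interactions ranged from 2 to 6 for 6hPR against developing, 2 to 19 for 6hPR + FGF2 against developing and 0 to 12 for 6hPR + FGF2 against 6hPR RPE.

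The replicate block lost 15 of 249 calls and gained 1, leaving 19, 22 and 34 calls between the stages in developing, 6hPR and 6hPR + FGF2 RPE. Same-numbered libraries did not deviate together (mean correlation of deviations from the group means 0.011 over 45 pairs, and -0.0039 over 90 pairs with different numbers), so the numbers were not read as pairs. Pseudocounts of 1 and 5 lost 0 and 2 of the 249 calls and gained 4 and 6, TMM scaling lost 5 and gained 5, and edgeR lost 18 and gained 4. DESeq2 lost 3 and gained 58, and gave no adjusted p in 103 tests of transporters. Depth limits the members with a mean under 10, of which there are 9, and n = 3 pools limits every comparison.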
